A study of Mus musculus with 14 samples.

Results

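The nuclear genes of the mitochondrial respiratory chain were followed here as a set, chosen by symbol. Every probe set whose annotated symbol begins with Ndufa, Ndufb, Ndufc, Ndufs, Ndufv, Uqcr, Cox4 to Cox8 or Atp5, or is Sdha, Sdhb, Sdhc or Sdhd, was taken, with the highest mean standing for a symbol. This gave 93 genes with 1 probe set each, out of 19505 gene symbols on the array. Of these, 85 encode subunits: 38 of complex I, 4 of complex II, 8 of complex III, 18 of complex IV and 17 of complex V. The other 8 are the complex I assembly factors Ndufaf1 to Ndufaf8, which share the symbol stem and are given apart. Ndufa4 and its paralogue Ndufa4l2 are counted under complex I by their symbols, although the Ndufa4 protein is now placed in complex IV. No subunit encoded in mitochondrial DNA was measured by name, and cytochrome c1 (Cyc1), a complex III subunit, lies outside the symbol rule.

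The respiratory chain sits in the inner mitochondrial membrane. Complex I takes electrons from NADH and complex II from succinate, both pass them through coenzyme Q to complex III, cytochrome c carries them on to complex IV, and complex IV hands them to oxygen. Complexes I, III and IV pump protons as they work, and complex V, the ATP synthase, lets the protons back in to make ATP. Hepatocytes are rich in mitochondria, and in fatty liver the chain takes up the electrons released by fatty acid oxidation.

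The study fed adult male wild-type (WT) C57Bl6 mice for 2 weeks with CDAA, a diet supplemented with cholesterol, glucose and fructose, or with CSAA as the control. In this field CDAA stands for a choline-deficient and CSAA for a choline-supplemented diet defined by amino acids. RNA was hybridized to Clariom S mouse arrays from total liver of CDAA mice (4 arrays), total liver of CSAA mice (4 arrays), primary hepatocytes of CDAA mice (3 arrays) and primary hepatocytes of CSAA mice (3 arrays), each array an independent preparation. Total liver was the caudal lobe after cardiac perfusion with saline, hepatocytes came from collagenase perfusion, and each tissue had its own RNA kit. Whether a preparation was 1 mouse is not stated in the sources used here. Values are log2 intensities: a difference of 1 is a doubling, and values of different probe sets are not compared with each other. The tissues appear to have been normalized separately, so levels are not compared between total liver and hepatocytes.

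The arrays of a group correlated across probe sets at 0.990 to 0.995 (CDAA) and 0.990 to 0.993 (CSAA) in total liver, and at 0.952 to 0.982 (CDAA) and 0.978 to 0.983 (CSAA) in hepatocytes. Background was taken, array by array, as the 95th percentile of 5222 probe sets that read introns, 9.96 to 10.2 in total liver and 6.84 to 8.01 in hepatocytes. None of 19 hepatocyte function genes lay under background in any group. Their mean over genes ranged from 17.7 to 17.8 on CDAA arrays and from 17.9 to 18.0 on CSAA arrays of total liver. In hepatocytes it ranged from 17.8 to 18.4 on CDAA and from 18.7 to 18.8 on CSAA arrays, and 7 of the 19 fell there by limma. The mean of 15 macrophage markers was 10.2 to 11.1 on CDAA and 7.21 to 7.65 on CSAA arrays in total liver. In hepatocytes it was 10.0 to 11.5 on CDAA and 4.69 to 4.85 on CSAA arrays, where 1 marker lay under background on CDAA and 14 on CSAA. All 15 macrophage markers, 10 of 12 endothelial and 11 of 11 stellate and smooth muscle markers rose on CDAA in hepatocytes by limma. Of all tested probe sets 11% rose and 7.74% fell there. A lower level of a gene in such bulk RNA may come from fewer cells of a type or from less RNA per cell, which cannot be told apart here, and the part of the other cells in the results below was not tested.

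Promoters are shown for the 3 genes of core subunits of complexes I and III that passed the test in hepatocytes. Each window runs from 250 bases before to 50 bases after the transcription start and is printed 5′ to 3′ on the gene's strand, from RefSeq for the GRCm38.p6 build. Capitals mark matches to the letters searched on both strands, which were chosen after the values were seen: GCGCATGCG, a core of the NRF1 site, CCGGAAG, a core that ETS factors such as GABP bind, and AANATGGC, a YY1 site. NRF1, GABP and YY1 are known activators of nuclear genes of respiration. Ndufs3 lies at chr2:90904672-90904971 (minus strand) with the ETS letters at position -27 and, on the other strand, at position 2, counted from the start base as 1. Uqcrc1 lies at chr9:108936398-108936697 (plus strand) with the NRF1 letters at position 31 and, overlapping on the other strand, at position 32. Ndufv1 lies at chr19:4012706-4013005 (minus strand), and none of these letters is in its window.
Ndufs3: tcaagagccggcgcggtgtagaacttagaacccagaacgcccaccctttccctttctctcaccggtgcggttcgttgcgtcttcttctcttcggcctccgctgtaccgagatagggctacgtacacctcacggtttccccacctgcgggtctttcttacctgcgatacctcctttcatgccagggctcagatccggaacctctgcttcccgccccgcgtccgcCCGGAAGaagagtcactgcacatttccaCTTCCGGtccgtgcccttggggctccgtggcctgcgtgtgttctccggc
Uqcrc1: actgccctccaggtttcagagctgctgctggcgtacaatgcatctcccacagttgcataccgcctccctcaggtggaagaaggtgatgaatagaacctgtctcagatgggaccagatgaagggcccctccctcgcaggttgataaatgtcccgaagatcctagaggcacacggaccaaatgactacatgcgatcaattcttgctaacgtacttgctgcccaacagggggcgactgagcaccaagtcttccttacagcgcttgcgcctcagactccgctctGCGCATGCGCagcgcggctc
Ndufv1: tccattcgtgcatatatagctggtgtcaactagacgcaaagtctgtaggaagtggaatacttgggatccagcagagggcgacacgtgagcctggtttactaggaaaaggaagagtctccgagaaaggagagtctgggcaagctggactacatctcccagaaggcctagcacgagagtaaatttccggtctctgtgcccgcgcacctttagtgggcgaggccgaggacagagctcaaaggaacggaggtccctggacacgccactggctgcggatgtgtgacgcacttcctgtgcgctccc
A RefSeq promoter was at hand for 70 of the 85 subunit genes. The NRF1 letters were in 8 of these (11.4%), against 1.95% of 27025 genes with a promoter, the ETS letters in 17 (24.3%) against 9.93%, and the YY1 letters in 17 (24.3%) against 6.96%. Of the 17 promoters with the YY1 letters, 12 belonged to the 34 complex I genes with a promoter. A match is a description of the sequence, not a bound site.

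The comparison of CDAA with CSAA in total liver asked whether the diet shifts the chain in the whole organ. Small negative differences prevailed in all 5 complexes on CDAA, but only Ndufs3 passed the test. By limma, with p-values adjusted by Benjamini and Hochberg's method across the 22206 probe sets and a threshold of 0.05, 1 of 93 members fell and 0 rose, against 3.54% of all tested probe sets lower and 6.73% higher. Those were 785 lower and 1494 higher, and with arrays centred on their median 1650 and 1265. At an unadjusted p under 0.05 there were 8 members, against 23.6% of all probe sets. The fitted log2 difference was below 0 in 76 of 93 members, against 59.9% of all probe sets. The median was -0.28, against -0.09 over all probe sets. In 39 members (41.9%) every CDAA array lay below every CSAA array, against 12% of all probe sets. The reverse held for 1 member, Ndufa4l2, which was under background, against 13.1%. Above background on every total liver array were 67 subunits and 3873 probe sets. Of these subunits 83.6% were below 0, against 49.3% of these probe sets, and 46.3% against 19.5% had every CDAA array below every CSAA array. At an unadjusted p under 0.05 there were 5 of these subunits and 928 of these probe sets. Such separation was not particular to the chain. Every CDAA array also lay below every CSAA array in 47.4% of 19 hepatocyte function genes. For lists given below the share was 35.7% of 14 mitochondrial transcription and replication genes and 21.4% of 14 regulators. It was 18.8% of 16 electron carrier and coenzyme Q genes, 11.1% of 18 citrate cycle genes and 10.3% of 29 assembly factors of complexes II to V. The count of called members was 3 without hepatocyte CDAA replicate 1 or 3 and 2 without hepatocyte CSAA replicate 1 or 3 or total liver CSAA replicate 1, and it was 0 without any other 1 of the total liver arrays.

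**Figure D1:**
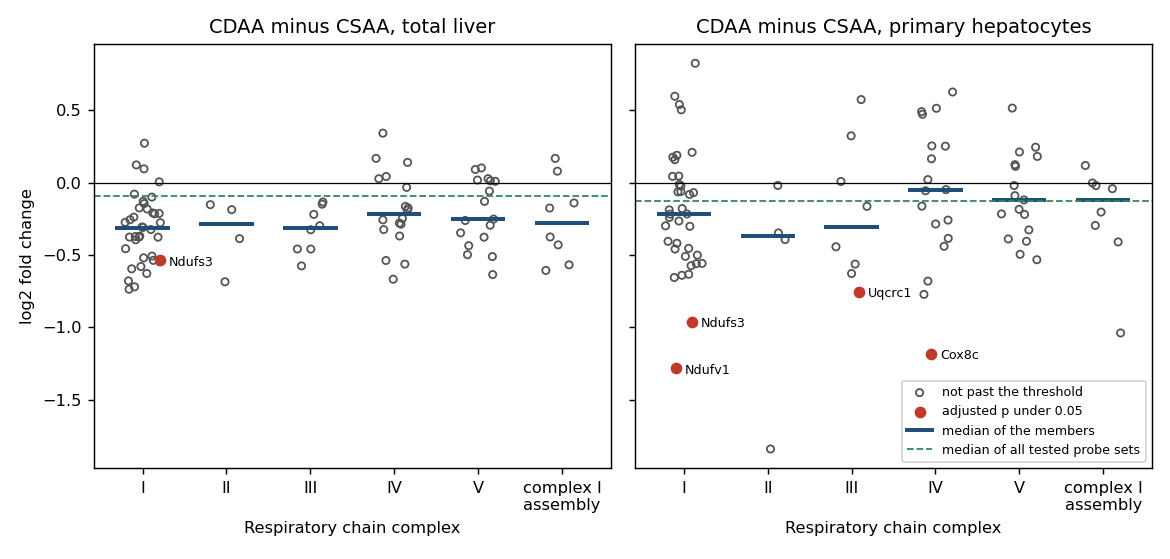
Log2 fold change, CDAA minus CSAA, of each member (points) by complex, in total liver and in primary hepatocytes. Filled points passed the threshold on adjusted p, bars give the median of the members and the dashed line the median of all tested probe sets. In total liver the medians of the 5 complexes lie between -0.32 and -0.22, and in hepatocytes the points spread more widely.

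Complex I had a median of -0.32 in total liver, with 34 of 38 genes below 0. Ndufs3 encodes a core subunit of the arm that reaches into the matrix. It had values of 14.01, 14.02, 13.91 and 13.97 on CDAA, against 14.36, 14.69, 14.52 and 14.47 on CSAA. The groups did not overlap, and the difference was -0.54 ± 0.16 (SE; limma, adjusted p = 0.0385), a ratio of 0.69. This call rests on all 8 total liver arrays: without any 1 of them it was lost, with an adjusted p of up to 0.108 by limma, and it was lost with trend and robust moderation too. Ndufb11, an accessory subunit of the membrane arm, had 9.93, 9.71, 10.03 and 9.83 on CDAA, against 10.59, 10.76, 10.75 and 10.35 on CSAA. All CDAA values were lower, but the difference of -0.74 ± 0.23 (bound -0.58 with the CDAA group at background) just missed the threshold (limma, adjusted p = 0.0505).

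The 6 core subunits of complex I measured include the carriers of the flavin and iron-sulfur clusters, which lead electrons from NADH to coenzyme Q. All 6 were below 0. In 5 every CDAA array lay below every CSAA array, against 12% of all probe sets. Among probe sets above background on every total liver array, as these 6 were, the share was 19.5%. Ndufv1, which binds the flavin and NADH, had 13.46, 13.52, 13.69 and 13.67 on CDAA, against 13.83, 14.08, 14.02 and 13.91 on CSAA. The groups lay apart, yet the difference of -0.38 ± 0.19 did not pass (limma, adjusted p = 0.254). The 30 accessory subunits, which stabilise the complex, had a median of -0.32 with 27 below 0. Among them Ndufab1, which also acts as the acyl carrier protein of mitochondrial fatty acid synthesis, averaged 13.33 ± 0.11 on CDAA and 13.70 ± 0.11 on CSAA (SD, n = 4 each), a difference of -0.37 ± 0.32 that did not pass (limma, adjusted p = 0.518). The 8 assembly factors had a median of -0.28, and 6 of them lay wholly under background on CDAA and 5 on CSAA.

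The 4 subunits of complex II, which is also succinate dehydrogenase of the citrate cycle, were all below 0 in total liver, with a median of -0.29. Sdha, the flavoprotein that oxidises succinate, had 11.63, 11.83, 12.05 and 11.97 on CDAA, against 12.44, 12.71, 12.72 and 12.36 on CSAA. The 4 CDAA values were the lower ones, but with the spread shared with hepatocytes the difference was -0.69 ± 0.78 (limma, adjusted p = 0.646). Sdhb, the iron-sulfur subunit, had -0.15 ± 0.19, and the membrane anchors Sdhc and Sdhd had -0.19 ± 0.26 and -0.39 ± 0.31, none past the threshold.

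Complex III passes electrons from reduced coenzyme Q to cytochrome c. All 8 genes were below 0 in total liver, with a median of -0.31. In 6 of them every CDAA array lay below every CSAA array, against 12% of all probe sets. The share was 19.5% among probe sets above background on every total liver array. Uqcrc1 and Uqcrc2 encode the core proteins of the matrix side, and Uqcrfs1 the Rieske iron-sulfur protein. Uqcrc1 had 12.34, 12.20, 12.44 and 12.21 on CDAA, against 12.61, 12.84, 12.53 and 12.51 on CSAA, a difference of -0.33 ± 0.20. Uqcrc2 averaged 11.79 ± 0.16 on CDAA and 12.25 ± 0.12 on CSAA (SD, n = 4 each), and Uqcr11, a small accessory subunit under background on CDAA, had the lowest difference of the complex at -0.58 ± 0.39. The smallest difference was that of Uqcrb, at -0.13 ± 0.18, with 17.46, 17.49, 17.49 and 17.45 on CDAA against 17.55, 17.65, 17.60 and 17.62 on CSAA. Even there the groups lay apart, and none of the 8 passed the threshold.

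Complex IV reduces oxygen to water and has subunits that exist as a general and a tissue-restricted isoform. In total liver 13 of 18 genes were below 0, with a median of -0.22. All 11 general subunits, among which Cox7a2l is counted by its symbol, were above background in all 4 groups. The 7 isoforms known from muscle, lung, testis or other tissues (Cox4i2, Cox6a2, Cox6b2, Cox7a1, Cox7b2, Cox8b and Cox8c) and Ndufa4l2 lay wholly under background in all 4 groups, so their differences have no bound and give no measured level. Among the general subunits Cox7a2, the liver form of subunit 7a, had the lowest difference, with 12.63, 12.73, 12.60 and 12.35 on CDAA against 12.94, 13.32, 13.14 and 13.06 on CSAA (-0.54 ± 0.42). The groups lay apart without passing. Cox4i1, the general form of the regulatory subunit 4, had 12.42, 12.33, 12.38 and 12.38 on CDAA, against 12.49, 13.01, 12.59 and 12.56 on CSAA (-0.29 ± 0.32). Cox6a1, the liver form of subunit 6a, had the highest difference of the complex (0.34 ± 0.21), with 16.29, 15.82, 16.27 and 15.93 on CDAA against 15.83, 15.78, 15.77 and 15.57 on CSAA. Its groups overlapped, and it did not pass (limma, adjusted p = 0.347).

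Complex V had 11 of 17 genes below 0 in total liver, with a median of -0.25, and none passed. Atp5a1 (-0.06 ± 0.22) and Atp5d (0.02 ± 0.24) belong to F1, the head with its central stalk, and differed by less than their error. Their signs turned after joint quantile normalization (Atp5a1) or centring (Atp5d). Atp5e, the smallest subunit of F1 and under background on CDAA, had 9.47, 9.60, 9.19 and 9.23 on CDAA against 9.94, 10.19, 9.99 and 9.90 on CSAA (-0.64 ± 0.57). The 3 genes of the proton-carrying ring encode the same mature protein with different import sequences. Of these Atp5g3 averaged 14.15 ± 0.10 on CDAA and 14.50 ± 0.17 on CSAA (SD, n = 4 each), with groups that lay apart (-0.35 ± 0.21). Atp5g1 (0.09 ± 0.26) and Atp5g2 (0.10 ± 0.29) had overlapping groups, and both signs turned when arrays were centred on their median. Atp5k, a membrane subunit under background on both diets, had -0.51 ± 0.29.

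**Figure D2:**
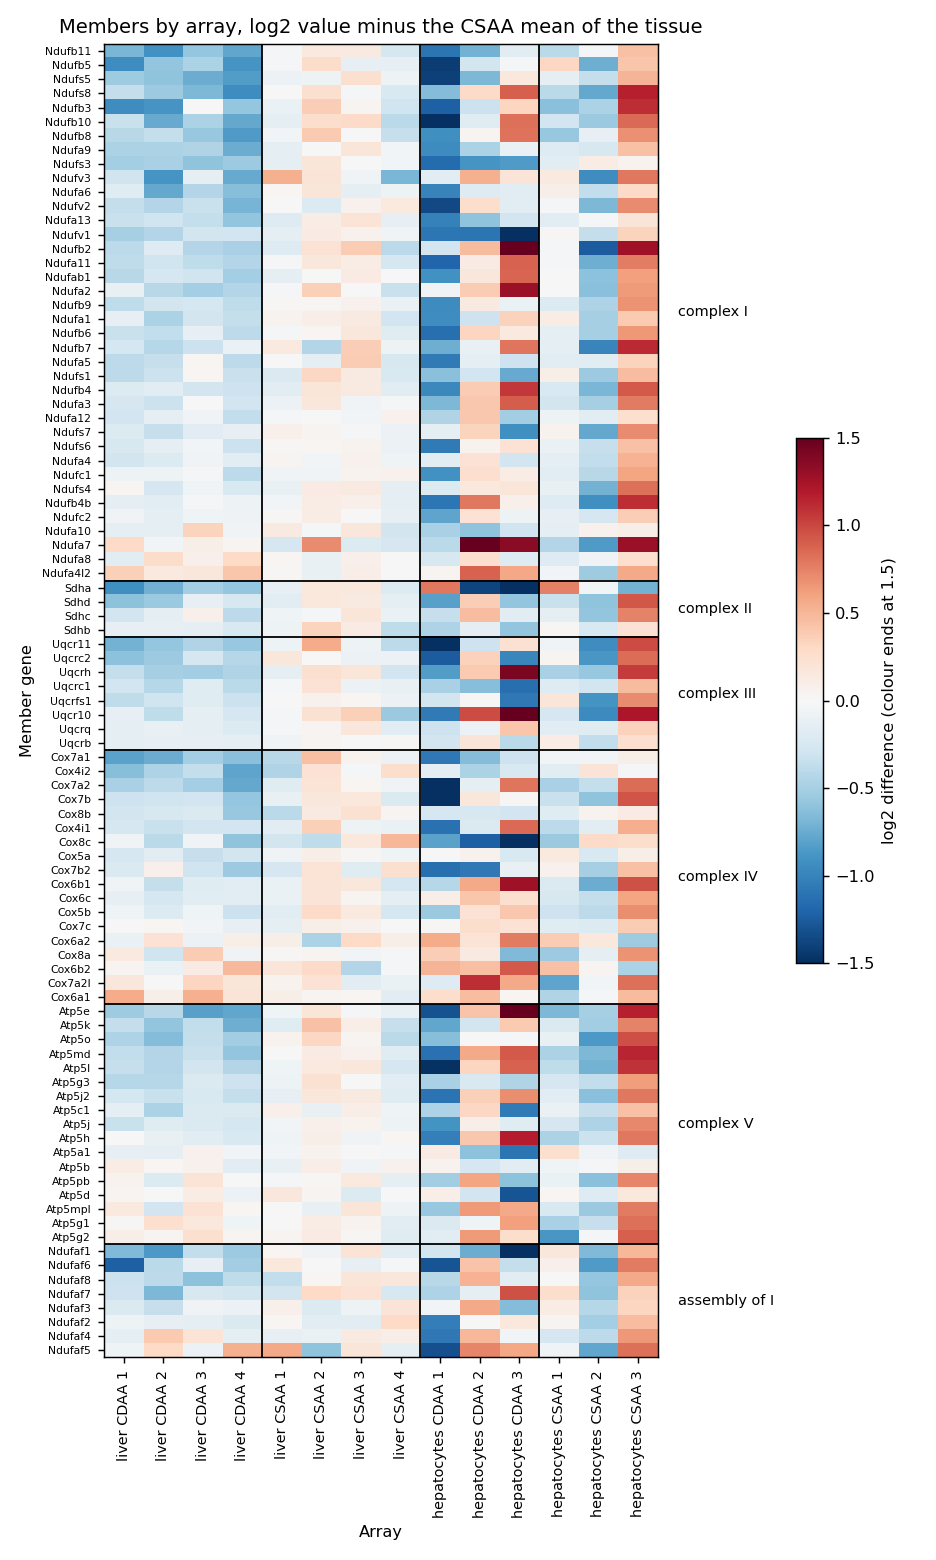
Each member (rows, by complex, sorted within a complex by the total liver difference) on each of the 14 arrays (columns), as log2 value minus the CSAA mean of the same tissue, with the colour scale ending at 1.5. The total liver CDAA columns are mostly pale blue, while among hepatocyte columns CDAA 1 is mostly blue and CSAA 3 mostly red.

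The total liver arrays differed little among themselves in these genes. The median SD over the 85 subunits was 0.135 on CDAA and 0.157 on CSAA, below the 0.232 and 0.245 of all tested probe sets. In hepatocytes it was 0.589 on CDAA and 0.619 on CSAA, above the 0.394 and 0.325 of all tested probe sets. The limma fit shares 1 spread per probe set between the tissues. With total liver arrays alone in the fit, 15 members fell and 0 rose, against 9.05% of all probe sets lower and 11.7% higher. They were Ndufs3, Ndufs8, Ndufv2, Ndufb11, Ndufb5, Ndufs5, Ndufa6 and Ndufa9 of complex I, the assembly factor Ndufaf1, Sdha of complex II, Uqcrc2 of complex III, Cox7a2 and Cox7a1 of complex IV, and Atp5e and Atp5md of complex V. Of these, Cox7a1 was under background on both diets, and 8 names (Ndufs8, Ndufv2, Ndufb5, Ndufs5, Ndufa6, Ndufa9, Ndufaf1 and Atp5md) are given after their values were seen. In that fit Sdha had -0.69 ± 0.15 (limma, adjusted p = 0.00908), Ndufb11 had -0.74 ± 0.15 (limma, adjusted p = 0.00483) and Atp5e had -0.64 ± 0.15 (limma, adjusted p = 0.011).

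In hepatocytes the question was whether the parenchymal cells show the diet difference themselves. On CDAA the core subunits Ndufs3 and Ndufv1 of complex I and Uqcrc1 of complex III fell, and so did the reading of Cox8c, which lay under background. By limma 4 of 93 members fell and 0 rose, against 7.74% of all tested probe sets lower and 11% higher. Those were 1719 lower and 2439 higher, after joint quantile normalization 3068 and 2360, and with arrays centred on their median 3244 and 2149. At an unadjusted p under 0.05 there were 12 members, against 31.1% of all probe sets. Differences below 0 numbered 65 of 93, against 60.7% of all probe sets, and the median was -0.18 against -0.13. In 8 members (8.60%) every CDAA array lay below every CSAA array, against 14.2% of all probe sets, and in 1, Cox6b2, above, against 12.4%. These shares of the members were at or below those of all probe sets, apart from that of differences below 0. Among probe sets above background on every hepatocyte array, 3 of 73 subunits fell, against 721 of 4392 probe sets. At an unadjusted p under 0.05 there were 7 of these subunits and 1842 of these probe sets, and 69.9% against 56.2% were below 0. Without CDAA replicate 1 there were 10 called members, of which 8 fell and 2, Ndufa7 and Uqcr10, rose. Without CDAA replicate 3 or CSAA replicate 2 there were 8, all of which fell. With hepatocyte arrays alone in the fit 2 members fell, Ndufs3 and Ndufv1, and 0 rose, against 1.95% of all probe sets lower and 6.53% higher.

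Ndufv1 had 12.78, 12.77 and 12.19 on CDAA, against 13.88, 13.51 and 14.20 on CSAA in hepatocytes. The groups lay apart by more than their spread, with a difference of -1.28 ± 0.22 (limma, adjusted p = 0.000575), a ratio of 0.411. Ndufs3 had 13.42, 13.69 and 13.73 on CDAA, against 14.42, 14.69 and 14.63 on CSAA. The difference of -0.96 ± 0.18 (limma, adjusted p = 0.0011) was a ratio of 0.513. Both calls held without each array in turn and under every alternative tried, with adjusted p of at most 0.0482. Uqcrc1 had 12.65, 12.50 and 12.01 on CDAA, against 12.95, 12.85 and 13.62 on CSAA. The groups lay apart, with a difference of -0.75 ± 0.24 (limma, adjusted p = 0.0349). That call was lost without CDAA replicate 2, CDAA replicate 3 or CSAA replicate 3, with trend and robust moderation, and with hepatocyte arrays alone in the fit (limma, adjusted p = 0.223). Cox8c, a testis isoform in mouse, had 4.78, 4.36 and 4.07 on CDAA, against 5.03, 5.87 and 5.85 on CSAA. Both groups lay under background, and the fitted -1.18 ± 0.30 (limma, adjusted p = 0.0103) has no bound. With hepatocyte arrays alone it did not pass (limma, adjusted p = 0.0772).

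**Figure D3:**
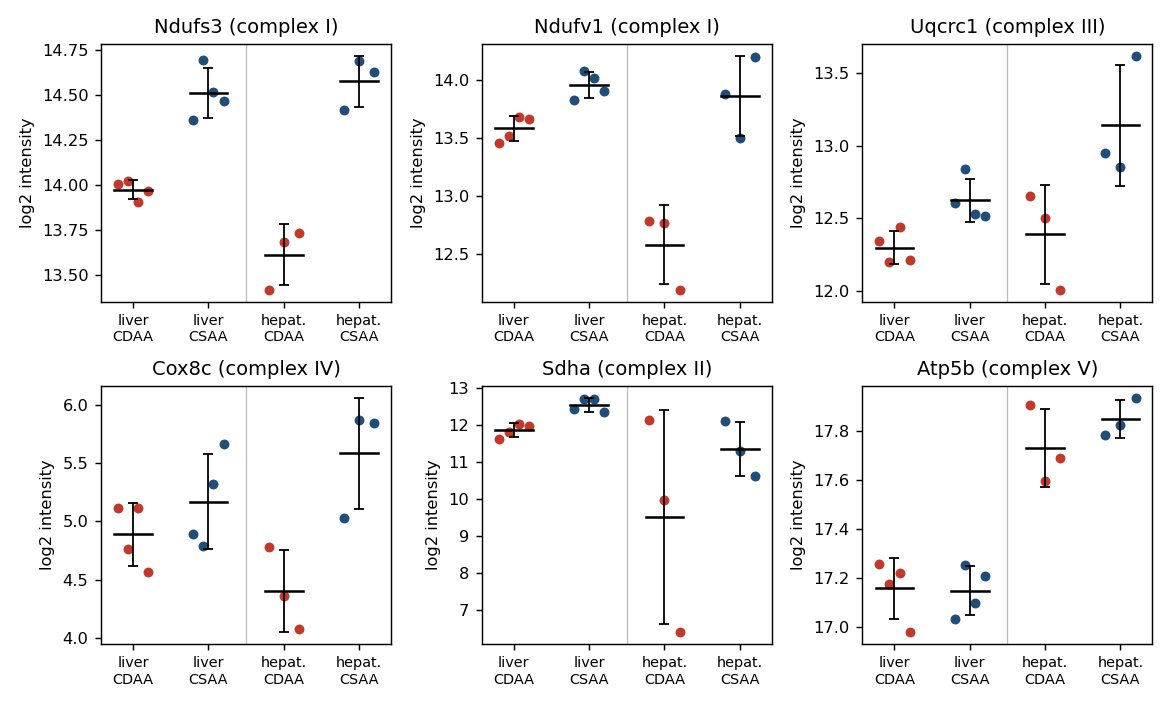
Log2 values of Ndufs3, Ndufv1, Uqcrc1, Cox8c, Sdha and Atp5b on each array (points) by tissue and diet, with CDAA in red and CSAA in blue, bars for the mean and SD. CDAA points of Ndufs3 and Ndufv1 lie below all CSAA points in both tissues, and the 3 CDAA hepatocyte points of Sdha range from 6.41 to 12.14.

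The remaining complex I genes of hepatocytes did not pass. Ndufb11 had 9.54, 9.92 and 10.48 on CDAA, against 10.23, 10.60 and 11.08 on CSAA, groups that overlapped (-0.66 ± 0.26; limma, adjusted p = 0.0961). Ndufa7, an accessory subunit, had the highest difference of all members, with 5.60, 7.52 and 7.36 on CDAA against 5.56, 5.15 and 7.29 on CSAA (0.83 ± 0.52). The CSAA group lay under background, as did CDAA replicates 1 and 3, and the difference has no bound. It did not pass with all arrays, but did without CDAA replicate 1 (1.44; limma, adjusted p = 0.0297) or CSAA replicate 3 (1.47; limma, adjusted p = 0.038). Ndufab1 averaged 12.84 ± 0.90 on CDAA and 12.79 ± 0.62 on CSAA (SD, n = 3 each), a difference of 0.04 ± 0.36, and Ndufa4 had -0.08 ± 0.23. Their signs turned after joint quantile normalization, and that of Ndufab1 with centring too. The median of complex I was -0.22 with 28 of 38 below 0.

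Complex II had the lowest median of the 5 complexes in hepatocytes, -0.37 over 4 genes, and Sdha varied most among them. Sdha had 12.14, 9.97 and 6.41 on CDAA, against 12.11, 11.31 and 10.64 on CSAA. The CDAA replicates spanned more than the gap between the groups, and the difference of -1.84 ± 0.91 did not pass (limma, adjusted p = 0.182). It was -3.16 (limma, adjusted p = 0.00192) without CDAA replicate 1 and -0.29 (limma, adjusted p = 0.724) without CDAA replicate 3. Sdhb had 13.87, 14.20 and 13.75 on CDAA, against 14.35, 14.10 and 14.55 on CSAA (-0.39 ± 0.22). Sdhc (-0.02 ± 0.30) and Sdhd (-0.35 ± 0.36) overlapped between the diets as well.

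In complex III of hepatocytes the median was -0.30. The 3 core genes had a median of -0.63, and the 5 accessory genes, of which 2 were below 0, one of 0.01. The difference between them was not tested. Uqcrc2 had 10.43, 12.02 and 10.70 on CDAA, against 11.71, 10.80 and 12.52 on CSAA (-0.63 ± 0.40). Uqcr10, a small accessory subunit, had 9.66, 11.69 and 12.53 on CDAA, against 10.46, 9.76 and 11.93 on CSAA (0.57 ± 0.59). Both overlapped between the diets and neither passed.

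Complexes IV and V had medians of -0.05 and -0.12 in hepatocytes. No general complex IV subunit passed. Cox7a2 had 11.59, 13.26 and 14.20 on CDAA, against 12.91, 13.05 and 14.24 on CSAA (-0.39 ± 0.48). Cox7a2l had 11.28, 12.58 and 12.04 on CDAA, against 10.69, 11.44 and 12.30 on CSAA (0.49 ± 0.36). Cox6a1 (0.25 ± 0.24) and Cox8a (-0.06 ± 0.31) overlapped too. In complex V Atp5a1 had 17.20, 16.46 and 15.98 on CDAA, against 17.32, 17.02 and 16.89 on CSAA. Its difference of -0.53 ± 0.25 did not pass (limma, adjusted p = 0.166), but did without CDAA replicate 1 (-0.86; limma, adjusted p = 0.00723). Atp5d had 15.87, 15.49 and 14.48 on CDAA, against 15.81, 15.59 and 15.94 on CSAA (-0.50 ± 0.28). Atp5e had the widest spread of the complex, with 8.61, 10.34 and 12.34 on CDAA against 9.24, 9.42 and 11.08 on CSAA (0.52 ± 0.66).

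Single arrays set much of the hepatocyte picture. The mean over the 85 subunits, as a log2 difference from the CSAA mean of the tissue, was -0.66, 0.05 and 0.08 in the CDAA hepatocyte replicates, against -0.17, -0.41 and 0.58 in the CSAA hepatocyte replicates. In total liver it was -0.26, -0.31, -0.18 and -0.34 in the CDAA replicates, against -0.06, 0.12, 0.07 and -0.13 in the CSAA replicates. The groups of this mean lay apart in total liver and overlapped in hepatocytes. CDAA hepatocyte replicate 1 was the lowest of its group in 61 of 85 subunits, and CSAA hepatocyte replicate 3 the highest of its group in 77 of 85. Without CDAA replicate 1 the hepatocyte median over all 93 members was 0.07, without CSAA replicate 3 it was 0.12, and with array weights it was 0.19, against -0.18 with all arrays. In complexes I, IV and V the hepatocyte median also lay above 0 without CDAA replicate 1 (0.06, 0.24 and 0.06) and without CSAA replicate 3 (0.08, 0.18 and 0.27). The direction of the hepatocyte median therefore rests on those arrays.

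**Figure D4:**
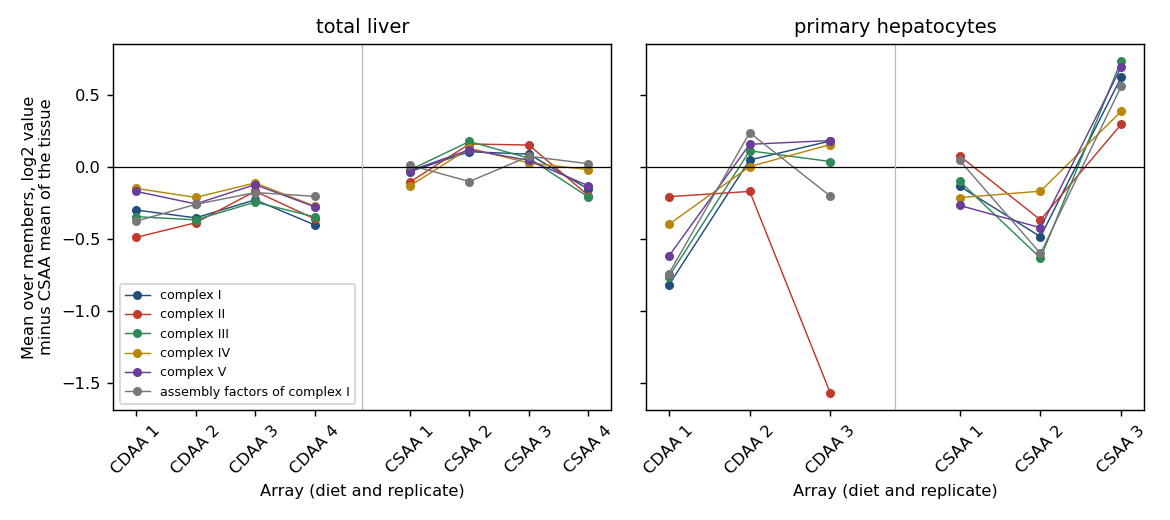
Mean over the members of each complex on each array, as log2 difference from the CSAA mean of the tissue, with total liver at left, hepatocytes at right and CDAA left of CSAA in each panel. In total liver the complexes move within a narrow band, and in hepatocytes the lines part at CDAA replicate 3, where complex II stands at -1.57, a mean over 4 genes that Sdha pulls down (their median is -0.59).

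In CDAA hepatocyte replicate 3 the means of core and accessory subunits lay apart. This array was the highest of its group in 20 of 30 accessory subunits of complex I, with a mean of 0.33 against the CSAA mean. In the 6 core subunits of complex I it stood at -0.58. The same held in complex III, with 0.69 over 5 accessory and -1.06 over 3 core genes. In complex V the means were 0.69 over 5 membrane subunits and -0.24 over 5 F1 subunits (medians 0.70 and -1.07). Replicate 1 had -0.87 and -0.84 in the accessory and core genes of complex I and -0.82 and -0.67 in those of complex III. In complex V it had -1.01 in the membrane and -0.30 in the F1 subunits (medians -1.11 and 0.06). Replicate 2 had 0.07 and -0.23 in the accessory and core genes of complex I and 0.23 and -0.09 in those of complex III. In complex V it had 0.32 in the membrane and -0.08 in the F1 subunits (medians 0.35 and -0.25). Relative to CDAA replicate 1, replicate 3 stood at -5.73 in Sdha, -1.39 in Atp5d, -1.22 in Atp5a1 and -0.65 in Uqcrc1. In the other direction it stood at 3.73 in the F1 subunit Atp5e, 1.55 in the core subunit Ndufs8 and 1.18 in the core subunit Ndufv2. No test was made of these differences, since each is between single arrays.

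The difference between the tissues, total liver minus hepatocytes, asked whether the diet differences were unequal. By limma 0 of 93 members passed, against 2.57% of all tested probe sets, and 2 members had an unadjusted p under 0.05, against 11.8%. These 2 were Ndufv1, with -0.38 in total liver and -1.28 in hepatocytes (difference 0.91 ± 0.29; limma, adjusted p = 0.162), and Cox8c, under background (0.90 ± 0.39; limma, adjusted p = 0.369). The fitted value was below 0 in 59 of 93 members, against 48.5% of all probe sets. Sdha had a difference of 1.16 ± 1.20 (limma, adjusted p = 0.786) and Atp5e one of -1.15 ± 0.87 (limma, adjusted p = 0.685). The wide errors leave unequal changes of these sizes undetectable here.

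Other genes of mitochondrial respiration were read from lists made with results of these data known. Of 16 electron carrier and coenzyme Q genes 0 passed in total liver, where 2 had an unadjusted p under 0.05, and 2 fell in hepatocytes. The shares over all probe sets, which hold for each list here, were 23.6% at that p in total liver and, in hepatocytes, 7.74% lower and 11% higher. The 2 were Etfa, which takes electrons from fatty acid oxidation (-0.67 ± 0.17; limma, adjusted p = 0.0113), and Gpd2, the mitochondrial glycerol-3-phosphate dehydrogenase (-1.53 ± 0.51; limma, adjusted p = 0.0491). With hepatocyte arrays alone in the fit neither passed (limma, adjusted p = 0.151 for Etfa and 0.272 for Gpd2). Etfa had 14.66, 14.87 and 15.00 on CDAA, against 15.45, 15.44 and 15.65 on CSAA, groups that lay apart. Gpd2 had 10.42, 8.72 and 7.43 on CDAA, against 10.36, 11.01 and 9.79 on CSAA, groups that overlapped. Cycs, the gene of cytochrome c, had 0.03 ± 0.17 in total liver and 0.18 ± 0.20 in hepatocytes, neither past the threshold. Of 29 assembly factors of complexes II to V, 0 passed in total liver, where 4 had an unadjusted p under 0.05, and 3 fell in hepatocytes. They were Surf1, needed for complex IV (-0.98 ± 0.24), Cox18, which inserts a complex IV subunit into the membrane (-1.04 ± 0.35), and Ttc19, needed for complex III (-0.89 ± 0.22). None of the 3 passed with hepatocyte arrays alone (limma, adjusted p = 0.105, 0.264 and 0.0847 in that order).

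Among 14 genes of mitochondrial transcription and replication 0 passed in total liver (4 at an unadjusted p under 0.05) and 3 fell in hepatocytes. They were Polg2, the accessory subunit of the mitochondrial DNA polymerase, under background on both diets (-1.46 ± 0.31), Tfb2m, a mitochondrial transcription factor (-0.78 ± 0.22), and Lrpprc, which stabilises mitochondrial messenger RNA (-1.42 ± 0.44). Polg2 also passed with hepatocyte arrays alone (limma, adjusted p = 0.0343), and Tfb2m (0.176) and Lrpprc (0.231) did not. Tfam, which packs mitochondrial DNA, had -0.52 ± 0.22 in total liver and -0.40 ± 0.26 in hepatocytes and did not pass. Among 14 regulators 0 passed in total liver (2 at an unadjusted p under 0.05) and 2 fell in hepatocytes. Ppara, the nuclear receptor of fatty acid oxidation, had 11.32, 10.10 and 9.09 on CDAA hepatocyte arrays, against 12.67, 11.65 and 12.48 on CSAA (-2.09 ± 0.52; limma, adjusted p = 0.0102). The groups did not overlap. Sirt3, the mitochondrial deacetylase, had -1.28 ± 0.27 (limma, adjusted p = 0.00323). With hepatocyte arrays alone neither passed (limma, adjusted p = 0.0674 for Ppara and 0.0555 for Sirt3). Ppargc1a, a coactivator of mitochondrial genes, had -0.10 ± 0.45 in total liver and -0.75 ± 0.53 in hepatocytes and did not pass.

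In the opposite direction, Idh2, the mitochondrial NADP-dependent isocitrate dehydrogenase, rose in both tissues. It had 13.87, 13.65, 14.04 and 13.62 on CDAA total liver arrays, against 12.04, 12.04, 11.80 and 11.73 on CSAA (1.89 ± 0.20; limma, adjusted p = 1.79e-05). In hepatocytes it had 13.30, 13.00 and 12.97 on CDAA, against 11.23, 10.33 and 10.73 on CSAA (2.33 ± 0.23; limma, adjusted p = 2.83e-06). No CDAA array overlapped a CSAA array in either tissue. Idh3a, a subunit of the NAD-dependent enzyme of the citrate cycle, also rose (0.94 ± 0.26 and 1.37 ± 0.30), and these 2 were the citrate cycle genes that rose among 18 measured. In hepatocytes Suclg1, a succinate-CoA ligase subunit, fell (-0.79 ± 0.26). Of 10 genes of ATP synthase inhibition, carriers and uncoupling, 1 rose in total liver and 3 in hepatocytes, and 0 fell in either. Slc25a4, the ADP/ATP carrier of heart and muscle, rose in both tissues (1.54 ± 0.45, bound 0.86, and 4.77 ± 0.52, bound 3.68). Its fitted differences were unequal between them (-3.23 ± 0.69; limma, adjusted p = 0.0163). On CSAA it lay under background in both tissues. Background there was 9.96 to 10.2 in total liver and 7.57 to 8.01 in hepatocytes, and its part in the inequality was not tested. Atpif1, the inhibitor protein of complex V, had 10.57, 13.12 and 12.77 on CDAA hepatocyte arrays, against 8.45, 8.60 and 10.07 on CSAA (3.11 ± 0.52; limma, adjusted p = 0.000444). Vdac2, a pore of the outer membrane, rose in hepatocytes (0.79 ± 0.26). With hepatocyte arrays alone Idh2, Slc25a4 and Atpif1 passed there, and Idh3a, Suclg1 and Vdac2 did not (limma, adjusted p = 0.076, 0.259 and 0.263 in that order). As stated above, markers of macrophages, endothelial and stellate cells rose in the same CDAA hepatocyte arrays, and the part of those cells was not tested.

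**Figure D5:**
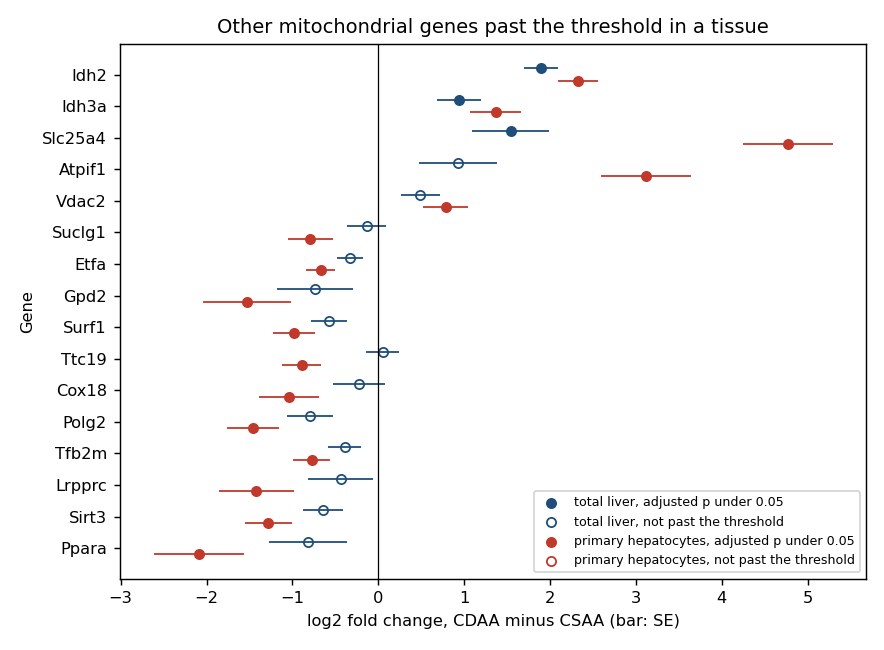
Log2 fold change, CDAA minus CSAA, with SE bars, of the listed mitochondrial genes outside the chain that passed in at least 1 tissue, in total liver (blue) and hepatocytes (red), with filled points past the threshold. Idh2, Idh3a, Slc25a4, Atpif1 and Vdac2 lie to the right of 0 in both tissues, and the genes that fell in hepatocytes do not pass in total liver.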

How the data were processed

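Each of 14 samples was read on 1 Clariom S mouse array. The deposited log2 intensities were made by the authors with RMA, per the submitters' processing notes. The version is not given in the sources used here. No depth applies to arrays, and the number of arrays limits the precision. Of 28846 probe sets, 6640 controls were dropped and the other 22206 tested, dim ones included. Symbols came from the platform annotation.

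limma 3.58.1 in R 4.3.3 fitted a mean per group to all arrays (10 residual and 5.11 prior degrees of freedom), with two-sided tests, Benjamini-Hochberg adjusted across the whole table, and a threshold of 0.05. The p-values measure the spread between preparations, pooled for each probe set over both tissues and not taken from the compared tissue alone. For example, Sdha in total liver had an SE of 0.784 in this fit and of 0.154 with total liver arrays alone. Ndufv1 in hepatocytes had an SE of 0.222 in this fit and of 0.298 with hepatocyte arrays alone. Where all arrays of a group lay under the 95th percentile of 5222 intron controls, a bound takes that group at the percentile. The script was tested on simulated data.

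Members, lists and tests were chosen with earlier results of these data known. Named members are all those past the threshold, per complex and tissue the 2 smallest p and the highest and lowest difference, and paralogous isoforms. For other lists they are the 3 smallest p per tissue and a few fixed genes. Of 230 listed genes, cell markers included, 180 were measured. The alternatives were trend and robust moderation, 1 tissue alone, leaving out the dimmest 30%, joint quantile normalization, centring, array weights, a replicate block, leaving out each array, subunits alone and, added after seeing the data, members above background alone.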

Additional observations from a re-analysis of the deposited data

Results flagged for a closer look

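In each total liver group, where there were 4 arrays, the 37 named members and the means of the 5 complexes and of the assembly factors were checked for 1 array far from the other 3. Of 86 such checks 3 stood out, and chance alone flags about 1 in 20. Cox7b, a general complex IV subunit, read 14.35 on CDAA total liver replicate 4, below the 14.61 to 14.63 of the other CDAA arrays. Sdhb, of complex II, read 14.17 on the same array, below the 14.26 to 14.27 of the others. Ndufa7, of complex I and under background, read 7.07 on CSAA total liver replicate 2, above the 6.11 to 6.16 of the other CSAA arrays.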

How the results depend on the processing

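In total liver the median differences of the 5 complexes stayed below 0 under every alternative. Called members there numbered 0 with trend and robust moderation, 2 without the dimmest 30%, 2 after joint quantile normalization, 5 after centring, 11 with array weights and 15 with total liver alone, against 1. In hepatocytes they numbered 2 with hepatocytes alone, 7 after joint quantile normalization (6 fell, and Cox6b2 rose), 10 after centring, all of which fell, and 10 with array weights (7 fell, and Ndufa7, Cox7a2l and Ndufa4l2 rose), against 4 that fell. Over all probe sets, 4613 (total liver) and 1883 (hepatocytes) passed with 1 tissue alone, and 4992, 6806 and (difference between tissues) 2725 with array weights, against 2279, 4158 and 570. Centring moved the median of all probe sets by -0.14 (total liver) and -0.16 (hepatocytes), put 88 and 73 of 93 members below 0, and took the total liver complex III median to -0.45.

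Leaving out 1 array at a time gave 0 to 3 called members and 1510 to 3115 probe sets in total liver, 3 to 10 and 3039 to 5811 in hepatocytes, and 0 and 396 to 2265 for the difference. The 10 and 5811 came without CDAA hepatocyte replicate 1, as did 3115 and 2265, and the 1510 without CDAA total liver replicate 1. Hepatocyte medians ranged from -0.40 to 0.12 over all members, -0.45 to 0.08 in complex I, -0.61 to -0.08 in II, -0.62 to -0.06 in III, -0.23 to 0.24 in IV and -0.44 to 0.27 in V. With array weights they lay above 0 in all 5 complexes, at 0.20, 0.09, 0.07, 0.18 and 0.20 from I to V. With members above background alone, added after seeing the data, 1 was called in total liver and 3 in hepatocytes, and the complex IV median in hepatocytes was 0.02.

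Residual correlations of arrays with equal replicate numbers were -0.13 to 0.02 within total liver and -0.21 to 0.35 within hepatocytes. Unequal numbers were not compared, so these values cannot show whether replicate numbers pair the arrays. With the replicate block 1 member was called in total liver, Ndufb11 in place of Ndufs3, 6 in hepatocytes, all of which fell, and 0 for the difference. Uqcrc1 did not pass in hepatocytes with the block (limma, adjusted p = 0.0877). Where calls changed, the cause was not tested. Each member has 1 probe set, so averaging over probe sets had nothing to change. Depth does not apply to arrays. Members under background are limited by their signal.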
